A study of Mus musculus with 9 samples.

Results

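Meg3, Malat1, Neat1, Miat, Snhg11, Rian and Mirg are long noncoding RNAs known for being held in the cell nucleus, and they were chosen by name for the comparison of the layers of the mouse piriform cortex. For each gene, the transcript with the highest mean count over the 9 samples was taken. Of the 7 genes, 4 (Meg3, Malat1, Neat1 and Snhg11) had transcripts among the 95533 counted, 23 transcripts in all. The annotated transcripts of Miat (6), Rian (20) and Mirg (12) matched no counted identifier, so the levels of these 3 genes were not analysed here, and the small RNAs annotated within Rian and Mirg are described in their place.

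The piriform cortex is the olfactory cortex, with a superficial layer of axon terminals and dendrites over layers dense with cell bodies. RNA came from wild-type C57BL/6 mice, 8 weeks old by the labels and 10 weeks old by the methods of the study, and each layer was cut from fresh-frozen brain sections by laser capture. Layers A, B and C have 3 libraries each, numbered 1 to 3, and no source used here gives a key from these letters to layers I, II and III or says whether the replicates are separate mice. All groups share genotype, strain, tissue and treatment, and in the labels they differ only in the layer letter. How the libraries were assigned to sequencing pools and lanes is not given, so a batch that coincides with a layer could not be told apart from it. The p-values below therefore measure the spread between these libraries, which may be technical.

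Long noncoding RNAs of the nucleus do not leave for translation. Malat1 sits in nuclear speckles, where splicing factors gather, and the long form of Neat1 is the scaffold of paraspeckles, nuclear bodies that hold RNA-binding proteins and edited RNA. Meg3, Rian and Mirg lie one after the other in the imprinted Dlk1-Dio3 region and are expressed from the maternal chromosome, with small nucleolar RNAs and microRNAs in the transcripts of the latter pair. Miat is a neuronal RNA of nuclear bodies of its own, and Snhg11 is a neuronal host gene of small nucleolar RNAs. A section of cortex holds nuclei where cell bodies lie, while dendrites and axons hold mRNA and no nuclei, so these RNAs bear on how much of a layer's RNA came from nuclei.

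Total counts ranged from 23104306 to 76471683 per library, and counts outside the mitochondrial genome from 6929782 in library A1 to 60245059 in library C3. Mitochondrial ribosomal RNA took 55.3 to 70.2% of the counts in layer A, 12.8 to 28.1% in B and 20.5 to 57.1% in C, with the highest value of layer C in library C2. Markers of glutamatergic neurons such as Slc17a7, the vesicular glutamate transporter of cortical neurons, were counted in every library, as were the GABA-synthesis gene Gad1 and the astrocyte filament gene Gfap. Of the 8 glutamatergic markers, 4 were lower in layer A than in B and none was higher (edgeR, adjusted p under 0.05), against 16.5% of all 56416 tested transcripts that differed between these layers in either direction.

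Neat1 was the single gene of the 4 whose layers differed past the threshold. It was higher in layer A than in layers B and C, by about 14.1-fold and 9.94-fold in the fit, while Malat1, Meg3 and Snhg11 overlapped between all pairs of layers. In bulk tissue, fewer cells of a type and less RNA per cell cannot be told apart, and this holds for each value that follows.

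The gene for Neat1 (ENSMUSG00000092274) lies on the minus strand of mouse chromosome 19, at chr19:5824708-5845478 in GRCm38, the assembly also named mm10. The transcript with the highest mean count was the long form (ENSMUST00000173672), 1 exon of 20.8 kb that spans the whole gene and is annotated as a long intergenic noncoding RNA. The long form is not polyadenylated at its 3′ end. It ends in U-rich stretches and an A-rich stretch that fold into a triple helix and shield the RNA. Malat1, its neighbour on the same chromosome, carries stretches of the same kind. Both RNAs are shown for these stretches, 5′ to 3′ on the transcript strand, and not every U-rich stretch is marked. In capitals are the U-rich letters TTTGCTTTT and the A-rich letters AAAAGCAAAA. These letters were read from the end of the long form, of which the A-rich ones are the last 10 bases. The Neat1 sequence is chr19:5824708-5824827, the end of the long form, and the Malat1 sequence is chr19:5795977-5796086, near the end of its annotated transcript, both on the minus strand.
Neat1 long form: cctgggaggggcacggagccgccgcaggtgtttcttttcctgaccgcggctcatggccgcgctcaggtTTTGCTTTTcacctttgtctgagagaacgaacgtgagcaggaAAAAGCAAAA
Malat1: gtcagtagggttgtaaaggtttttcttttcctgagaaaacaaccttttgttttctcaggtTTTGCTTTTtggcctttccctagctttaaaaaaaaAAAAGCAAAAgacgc

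Of 141767 transcripts of the GENCODE annotation, 4 held both letter strings in this order within their last 400 bases on the transcript strand. They were the main transcripts of Malat1 and Neat1 and a pair of transcripts of Ankrd31. The main Snhg11 transcript held each string 1 time, but not both in this order within its last 400 bases. The short form of Neat1 (ENSMUST00000174287) shares the 5′ part of the gene and is cleaved and polyadenylated there. Its final 60 bases, chr19:5842307-5842366 on the minus strand, are shown beside the final 60 bases of the main Meg3 transcript, chr12:109571667-109571726 on the plus strand, with the polyadenylation signal AATAAA in capitals.
Neat1 short form: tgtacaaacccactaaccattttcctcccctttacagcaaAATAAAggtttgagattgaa
Meg3: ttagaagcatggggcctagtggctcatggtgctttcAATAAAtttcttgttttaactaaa

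AATAAA was also in the last 40 bases of the annotated main transcripts of Malat1 and Snhg11, and not in those of the long form of Neat1. It occurred in the last 40 bases of 25.8% of all annotated transcripts on the same strand. These matches describe the letters of the sequence and were not measured as sites in these libraries.

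In layer A, Neat1 was at 57.2, 34.8 and 92.6 normalized CPM (read counts over library sizes scaled by the TMM method) in libraries A1, A2 and A3. In layer B it was at 2.89, 5.74 and 4.43 in libraries B1 to B3, and in layer C at 3.09, 5.29 and 10.1 in libraries C1 to C3. Every library of layer A was above every library of layers B and C, and layers B and C overlapped. The means were 61.5 ± 29.2, 4.35 ± 1.43 and 6.15 ± 3.58 normalized CPM (SD, n = 3 each). The log2 fold change was 3.82 for A against B (standard error, SE, 0.490, adjusted p = 0.000256 from edgeR's quasi-likelihood fit, with p-values adjusted by Benjamini-Hochberg over all tested transcripts). Against layer C it was 3.31 (SE 0.478, adjusted p = 0.00185 by edgeR). Between layers B and C it was -0.51 (SE 0.445, adjusted p = 1.00 by edgeR), within the spread of the libraries. With each library left out in turn, the difference stayed between 3.42 and 4.11 against layer B and between 2.91 and 3.91 against layer C, past the threshold each time.

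This was 1 of 4 genes called between layers A and B, where 16.5% of all tested transcripts were called, and 1 of 4 between layers A and C, where 11.3% were. Tested for any difference over all layers at once, it was again 1 of 4, against 14.3% of all. Replicates of layer A lay above all those of layer B for 17.2% of all transcripts and above those of layer C for 17%. Between layers B and C none of the 4 was called and 0% of all transcripts were in edgeR, with 4.11% at an unadjusted p under 0.05 and none of the 4 genes among them.

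**Figure D1:**
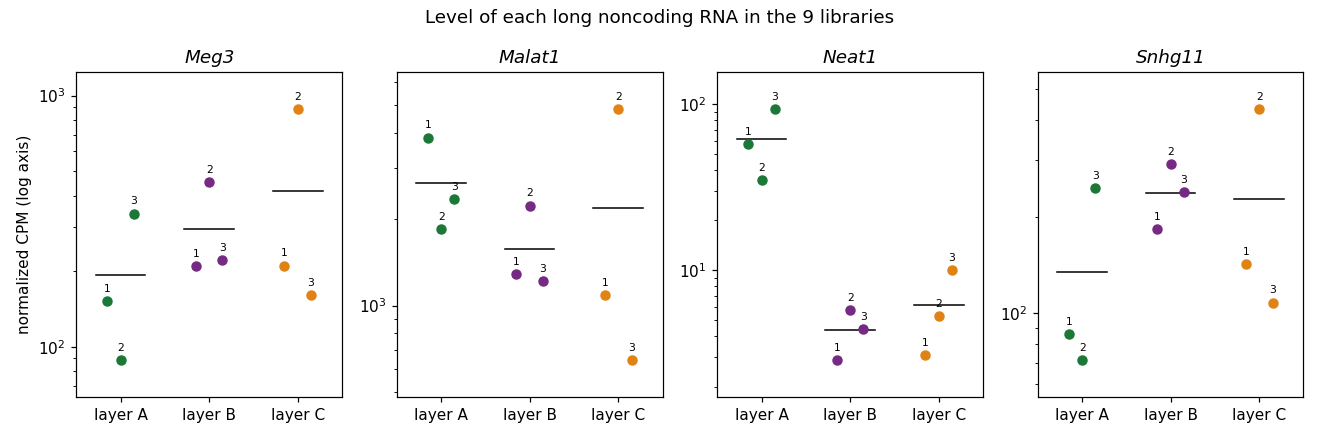
Normalized CPM (log axis, 1 panel a gene with its own range) of the main transcript of Meg3, Malat1, Neat1 and Snhg11 in the 9 libraries, with the replicate number beside each point and the layer mean as a bar. The 3 layer A libraries of Neat1 sit between 34.8 and 92.6, above all those of layers B and C, and the layers overlap for the other genes, with library C2 the highest point of each.

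The counts on the short and long forms of Neat1 allow the gene to be read in a pair of stretches. In 9 of 9 libraries the short form's count did not exceed that of the long form, and the long form alone was taken as the difference of the counts, on the assumption that reads on the short form counted for both. Of 14 pairs of a transcript without introns nested in an exon of another, 12 had an inner count that never exceeded the outer one. The assumption therefore does not hold for every pair, and the short form, which has an intron, was not among these pairs. This split was chosen after the values of Neat1 were seen. The 5′ stretch shared by both forms, 3004 bases long, was at 11.8, 4.89 and 10.9 normalized CPM per kb in libraries A1 to A3, at 0.254, 0.576 and 0.948 in B1 to B3, and at 0.620, 0.657 and 1.29 in C1 to C3. The rest of the gene, outside the exons of the short form, was at 1.22, 1.13 and 3.37 normalized CPM per kb in layer A, at 0.1199, 0.226 and 0.0889 in B and at 0.0690, 0.186 and 0.349 in C. Both stretches were therefore higher in every layer A library than in any other library. The ratio of the 5′ stretch to the rest, per kb, was 9.73, 4.32 and 3.23 in layer A, 2.12, 2.55 and 10.7 in B and 8.99, 3.53 and 3.70 in C. These ratios overlapped between all layers, so the higher level in layer A held along the gene, and no difference in the balance of the forms was detectable with 3 libraries a layer. In counts, the part of the long form alone ranged from 256 to 2405 in layer A, from 76 to 174 in B and from 50 to 729 in C.

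All 3 counted transcripts of Neat1 were higher in layer A than in B past the threshold, with log2 fold changes from 3.82 to 4.05, and 2 of 3 were higher than in layer C. They share reads and are not independent measurements. The third, a short fragment (ENSMUST00000174829), had 6, 17 and 43 counts in layer A, 0, 7 and 0 in B and 0, 0 and 24 in C, which makes its fold change imprecise.

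Markers of other cell types moved with Neat1. All 12 markers of astrocytes were higher in layer A than in B (edgeR, adjusted p under 0.05), beside 10.7% of all tested transcripts, with log2 fold changes from 2.44 to 4.29 and a median of 2.98. So were all 10 markers of endothelial and meningeal cells, with a median of 3.32, and 6 of 8 microglia markers, with a median of 2.44. The median over all tested transcripts was -0.12. The log2 fold change of Neat1 lay above the median of each of these lists. The summed level of the astrocyte markers was 5477 to 11193 normalized CPM in layer A, 729 to 1336 in B and 1322 to 1820 in C, and that of the endothelial and meningeal markers was 78.1 to 114, 5.16 to 13.2 and 9.62 to 17.3. For microglia markers the sums were 116 to 158, 17.2 to 41.1 and 45.3 to 56.8. Oligodendrocyte markers summed to 164 to 267 normalized CPM in layer A, 43.2 to 215.5 in B and 129 to 482 in C, and 1 of 8 was higher in layer A than in B. No marker of these lists was at 0 in all libraries. The part of these cells in the level of Neat1 was not tested.

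Genes with the profile most like that of Neat1 over the 9 libraries, among 15158 genes taken by their most abundant tested transcript, were Aebp1, Gbp4 and Tie1. Their Pearson correlations with Neat1 on the log2 normalized CPM scale were 0.995, 0.993 and 0.989. Tie1 encodes a receptor of endothelial cells, Gbp4 an interferon-induced guanylate-binding protein, and Aebp1 a secreted protein of connective tissue. These 3 were looked up after the values of Neat1 were seen, the 9 points share libraries and their depth, and most of the spread is that between layer A and the others.

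The proteins that gather on Neat1 in paraspeckles are encoded by genes of which 14 were looked for and 13 tested. Between layers A and B, 0 of 13 were called higher and 1 lower, beside 10.7 and 5.83% of all transcripts, so these counts do not set the list apart. Matr3, which encodes the RNA-binding protein matrin 3, was the 1 called, lower in layer A than in B with 44.9 against 89.4 mean normalized CPM (log2 fold change -0.99, SE 0.295, adjusted p = 0.0307 by edgeR). The core proteins Sfpq, Nono and Pspc1 had log2 fold changes of -0.35, -0.13 and -0.30 between these layers, with adjusted p = 0.562, 0.892 and 0.580 in edgeR. The largest value of the list was 0.12, for Dazap1, and the median was -0.31, beside -0.12 over all transcripts. Against layer C, none of the 13 was called in either direction.

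Malat1 (ENSMUSG00000092341, chr19:5795690-5802672 on the minus strand, the main transcript ENSMUST00000172812 being 1 exon of 6.98 kb) was the most abundant of the 4 genes. By mean normalized CPM it ranked 3, 2 and 1 in layers A, B and C among 33947 annotated genes outside the mitochondrial genome. Per kb, the ranks were 4, 9 and 4 in the same order. Identifiers not joined to the annotation were left out of the ranks. In layer A it was at 3843, 1840.0 and 2343 normalized CPM in libraries A1 to A3. In layer B it was at 1285, 2227 and 1214, and in layer C at 1088, 4812 and 647. All pairs of layers overlapped, and layer C held both the highest and the lowest of the 9 values. The log2 fold change was 0.76 for A against B (SE 0.564, adjusted p = 0.410 by edgeR), 0.29 for A against C (SE 0.562, adjusted p = 0.815 by edgeR) and -0.47 for B against C (SE 0.562, adjusted p = 1.00 by edgeR).

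Library C2 decided the comparison of Malat1 between layers A and C. Without it, the log2 fold change was 1.63 (adjusted p = 0.0434 by edgeR), past the threshold. In that refit 2 of the 4 genes were called, beside 3785 of all 56302 tested transcripts. Library C2 also had the highest Meg3 and Snhg11 of all libraries and the highest share of mitochondrial ribosomal RNA of layer C. Its part in the level of Malat1 beyond this refit was not tested. Without library A1, C1 or C3, the difference was -0.06, -0.03 and -0.13, and none of these passed. Between layers A and B, Malat1 was higher in layer A by 0.41 to 1.13 with each library left out in turn, and never passed.

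As a share of the counts outside the mitochondrial genome, with no scaling between libraries, Malat1 took 0.656, 0.361 and 0.494% in layer A, 0.241, 0.437 and 0.189% in B and 0.192, 0.797 and 0.126% in C. These shares keep the overlap between the layers and the place of library C2.

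Short annotated transcripts at the ends of Malat1 showed where along it the reads fell. The transcript at the 5′ end (ENSMUST00000173499, 485 bases) held 32.1, 15.8 and 21.3% of the counts of the whole in layer A, 15.9, 22.0 and 41.4% in B and 27.9, 38.2 and 21.7% in C. Gm37376, annotated on the opposite strand at chr19:5801941-5802393, lies within the span of this transcript. Libraries without strand cannot tell their reads apart. The transcript at the 3′ end (ENSMUST00000173314, 556 bases) held 1.87, 5.72 and 4.55% in layer A, 5.26, 3.96 and 1.13% in B and 2.41, 1.15 and 4.67% in C. Per kb, the ratio of the 5′ end to the 3′ end ranged from 3.16 in library A2 to 42.1 in library B3, with 38.2 in library C2, 19.7 in A1 and 13.2 in C1. The balance thus differed between libraries of a layer by more than it did between layers, all of which overlapped. By the 3′ transcript, the log2 fold change of A against C was 1.35 (adjusted p = 0.102 by edgeR), and by the 5′ transcript it was -0.17 (adjusted p = 0.924 by edgeR). By another transcript at the 3′ end (ENSMUST00000174808) it was 0.92 (adjusted p = 0.382 by edgeR). Between layers A and B, the values of these 3′ transcripts were 0.74 and 0.07 in the same order, so the value at this end depends on the transcript taken. These stretches were chosen after values were seen. The 3′ transcript of the ratio (ENSMUST00000173314) runs to chr19:5795691, past the A-rich letters of Malat1 shown above (within chr19:5795977-5796086). The ratio therefore describes the annotated transcript and not an RNA that ends at those letters.

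**Figure D2:**
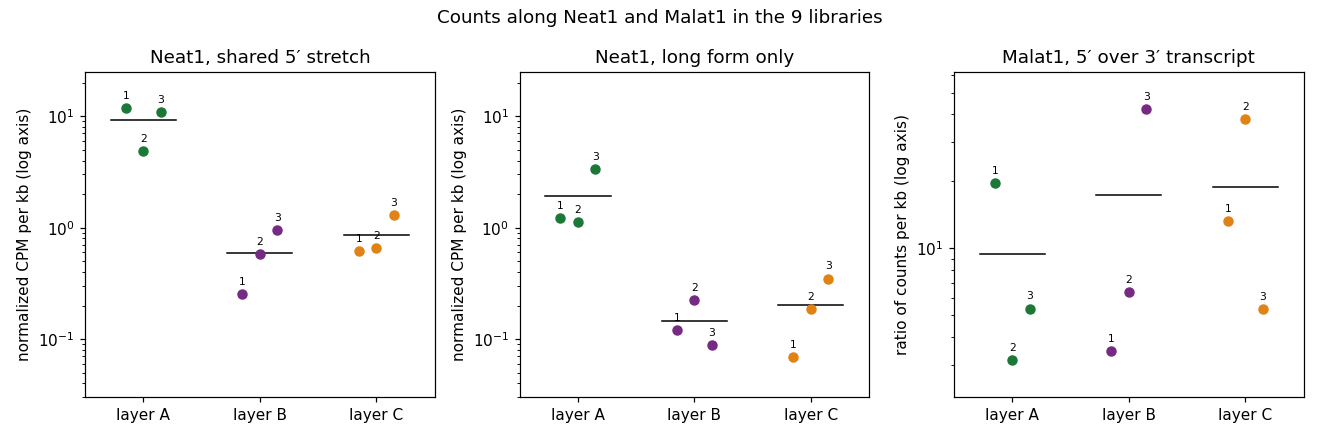
Normalized CPM per kb of the 5′ stretch of Neat1 shared by both forms and of the rest of the gene (left and middle, same log axis), and the per-kb ratio of the 5′ to the 3′ transcript of Malat1 (right, log axis), in the 9 libraries, with layer means as bars. Layer A is above the other layers in both stretches of Neat1, and the ratio along Malat1 runs from 3.16 to 42.1 with overlap between all layers.

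Genes with the profile most like that of Malat1 were Phf20l1, Kdm4c and 4930480K15Rik, with correlations of 0.962, 0.954 and 0.950 over the 9 libraries. Kdm4c encodes a histone demethylase. Proteins of nuclear speckles and splicing, where Malat1 resides, were mostly uncalled between layers A and B. Of 18 such genes, 1 was higher in layer A and 2 were lower, beside 10.7 and 5.83% of all transcripts, with a median of -0.11 beside -0.12 over all transcripts. These counts do not set the list apart from all transcripts. The higher gene was Qk, an RNA-binding protein that is abundant in glia, with a log2 fold change of 3.19 (SE 0.405, adjusted p = 0.000245 by edgeR). The lower ones were the neuronal splicing regulators Rbfox1 and Rbfox3, with -1.92 and -1.39 (adjusted p = 0.00124 and 0.00612 by edgeR). The speckle scaffold genes Son and Srrm2 had values of 0.18 and -0.19 (adjusted p = 0.711 and 0.769 by edgeR). Celf3, another neuronal regulator of the list, was at -0.88 (adjusted p = 0.254 by edgeR). Against layer C, 2 of 18 were higher and 2 lower in layer A, beside 6.98 and 4.35% of all transcripts, and Srsf5, a splicing factor of the SR family, was among those higher in layer A (log2 fold change 1.32, adjusted p = 0.0270 by edgeR).

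Meg3 (ENSMUSG00000021268, chr12:109541001-109571726 on the plus strand) is a maternally expressed RNA that is abundant in neurons. Its main transcript (ENSMUST00000146701, chr12:109545398-109571726) has 5 exons and 14.5 kb. In layer A it was at 152, 88.6 and 339 normalized CPM in libraries A1 to A3, in layer B at 210.2, 453 and 222 and in layer C at 210.3, 881 and 160.4. The libraries of all layers overlapped, and library C2 held the highest value. The log2 fold change was -0.61 for A against B (SE 0.585, adjusted p = 0.542 by edgeR), -1.11 for A against C (SE 0.590, adjusted p = 0.272 by edgeR) and -0.50 for B against C (SE 0.585, adjusted p = 1.00 by edgeR). Without library C2, the value against layer C was 0.06 (adjusted p = 0.963 by edgeR), so that its size and its sign both rested on that library.

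Of the 11 counted transcripts of Meg3, 10 passed the filter on low counts. The fitted values of all 10 were below 0 between layers A and B, from -1.08 to -0.42, and none passed the threshold. They share exons and reads, so this common sign is that of 1 gene. An annotated long noncoding RNA on the opposite strand, Gm26906, overlaps the last part of Meg3, and libraries without strand cannot tell their reads apart. Most like Meg3 in profile were Gm16231, Casc1 and Srrm2, with correlations of 0.969, 0.944 and 0.938.

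Of the protein-coding genes of the same imprinted region, which are expressed from the paternal chromosome, Rtl1 was at 1.16, 3.30 and 3.12 mean normalized CPM in layers A, B and C, with no layer called. Dlk1, a secreted and membrane-bound regulator of cell fate, had 0, 4 and 0 counts in layer A, 8, 14 and 51 in B and 11, 14 and 291 in C. In normalized CPM these were 0, 0.267 and 0 in layer A, 0.179, 0.323 and 1.06 in B and 0.270, 0.892 and 2.48 in C, with libraries A2 and C1 close. Dlk1 was lower in layer A than in C (adjusted p = 0.0452 by edgeR), at counts in layer A near the 3 counts taken as the floor of detection in a library. Dio3, which encodes an enzyme that inactivates thyroid hormone, had 3, 0 and 1 counts in layer A, 9, 6 and 14 in B and 17, 36 and 18 in C (adjusted p = 0.0736 in edgeR for layer A against C). None of the 4 measured genes of the region was called between layers A and B, and 1 of 4 was lower in layer A than in C, beside 4.35% of all transcripts.

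Snhg11 (ENSMUSG00000044349, chr2:158375638-158386145 on the plus strand) is a noncoding RNA of neurons, although its main transcript (ENSMUST00000109488, 5 exons, 5.86 kb) is annotated as protein coding. In layer A it was at 86.1, 71.4 and 246 normalized CPM, in layer B at 182, 292 and 239 and in layer C at 142, 432 and 108. Libraries A1 and A2 were the lowest of the 9, while A3 lay within layers B and C. The log2 fold change was -0.82 for A against B (SE 0.514, adjusted p = 0.320 by edgeR), -0.75 for A against C (SE 0.513, adjusted p = 0.412 by edgeR) and 0.07 for B against C (SE 0.510, adjusted p = 1.00 by edgeR). All 5 counted transcripts had values below 0 between layers A and B, from -1.13 to -0.79, and none passed. Without library C2, the value against layer C was 0.11. The genes most like it, looked up after its values were seen, were Gm16347, C230004F18Rik and Eml5, with correlations of 0.974, 0.964 and 0.954.

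**Figure D3:**
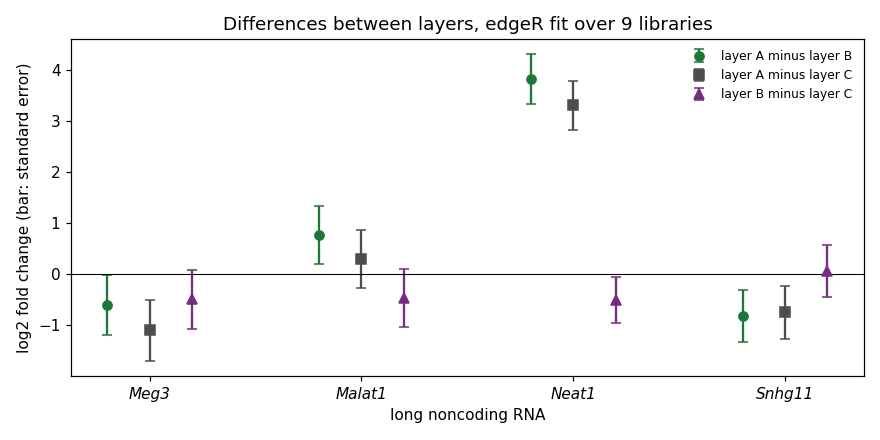
Log2 fold change with its standard error for each pair of layers and each of the 4 genes, from the edgeR fit over 9 libraries. Neat1 stands at 3.82 and 3.31 for layer A against layers B and C, and the other values lie between -1.11 and 0.76.

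The 4 genes did not share 1 profile. Over the 9 libraries, Meg3 and Snhg11 had a Pearson correlation of 0.939 on the log2 normalized CPM scale, Meg3 and Malat1 of 0.496, and the other pairs lay between -0.40 and 0.38. The genes most like their mean standardized profile were Ttf1, Ttc14, AC115631.1, Col4a2 and Gm15261, with correlations from 0.908 to 0.946. All of these points share library and depth.

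By level per kb, the order in layer A was Malat1 with 383 ± 149 normalized CPM per kb, Snhg11 with 22.9 ± 16.5, Meg3 with 13.3 ± 8.94 and Neat1 with 2.96 ± 1.40 (SD, n = 3). In layer B the order was the same, with 225.6 ± 81.0, 40.5 ± 9.31, 20.3 ± 9.42 and 0.210 ± 0.0686, and in layer C with 312.5 ± 328, 38.8 ± 30.4, 28.7 ± 27.7 and 0.296 ± 0.172. Snhg11 and Meg3 are neighbours in this order, and their difference was within their spread in layers A and C. By mean normalized CPM, Neat1 ranked 543 of the 33947 annotated genes in layer A, 7183 in B and 5821 in C. Meg3 ranked 85, 55 and 30 in these layers, and Snhg11 150, 85 and 85.

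To set these RNAs against the mRNA of neurons, the log2 level of each was taken relative to the mean of 12 pan-neuronal mRNAs in the same library, a ratio that does not depend on the scaling between libraries. Pan-neuronal mRNAs were lower in layer A than in B for 9 of 12 genes, beside 5.83% of all transcripts, with a median of -1.56. They include Syt1, the calcium sensor of synaptic vesicle release, at -1.46 (adjusted p = 0.00264 by edgeR), and Uchl1, a deubiquitinase abundant in neurons and the lowest of the list, at -2.24 (adjusted p = 0.0185 by edgeR). Relative to this list, Malat1 was at 6.90, 5.69 and 5.32 on the log2 scale in layer A, 3.73, 4.67 and 2.85 in B and 3.37, 5.84 and 2.50 in C. All libraries of layer A were above those of layer B, by 2.23 in the means, and layers A and C overlapped through library C2. The list itself differed by -1.47 between the means of A and B, which moves every gene up by as much on this scale. Of all transcripts, 56.1% were higher in layer A than in B without overlap on it and 0.353% lower, with a median difference of 1.35 (shares computed after values were seen), so the place of Malat1 does not set it apart. Neat1 was at 0.84, -0.04 and 0.67 in layer A, between -5.24 and -3.92 in B and between -5.07 and -3.50 in C. Meg3 and Snhg11 overlapped between all layers relative to the list, with differences of 0.74 and 0.45 between layers A and B.

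Dendrite-localized mRNAs are carried out of the cell body and translated near synapses. Of 13 measured, 5 were higher in layer A than in B, beside 10.7% of all transcripts, 1 was lower, beside 5.83%, and 7 were not called. The median of the list was 0.82, beside -0.12 over all transcripts. The higher ones were Shank1, Camk2a, Ppp1r9b, Ddn and Psd, which encode scaffold, kinase and signalling proteins of dendritic spines, with log2 fold changes of 1.92, 1.87, 1.84, 1.66 and 1.11 (adjusted p from 0.000877 to 0.0229 by edgeR). The lower one was Nrgn, a calmodulin-binding protein, at -2.04 (adjusted p = 0.0243 by edgeR). Relative to the mean of these mRNAs, Malat1 was at 5.09, 3.86 and 4.45 on the log2 scale in layer A, 4.23, 4.88 and 4.49 in B and 3.60, 6.06 and 2.97 in C, with overlap between all layers and a difference of -0.07 between the means of A and B. Snhg11 was at -0.39, -0.83 and 1.20 in layer A, 1.41, 1.95 and 2.15 in B and 0.67, 2.58 and 0.39 in C, so that layer A lay below layer B by 1.84 in the means with no overlap (A minus B, -1.84) and overlapped with layer C. The list differed by 0.82 between the means of A and B, which moves every gene down by as much, and 42.6% of all transcripts were lower in layer A without overlap on this scale, with a median difference of -0.94. The value of Snhg11 is therefore not particular to it. Meg3 was lower in layer A by a similar size (A minus B, -1.55), with overlap because library A3, at 1.66, lay just above library B1, at 1.62. Relative to the median of the list, Meg3 was lower in layer A without overlap (A minus B, -1.64), as Snhg11 was (-1.93). The shares of all transcripts were computed for the mean only. Relative to the mean, Neat1 was higher in layer A too, by 2.93 against layer B and 2.86 against layer C. Its libraries did not overlap, and 7.71% of all transcripts were higher without overlap against layer B.

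**Figure D4:**
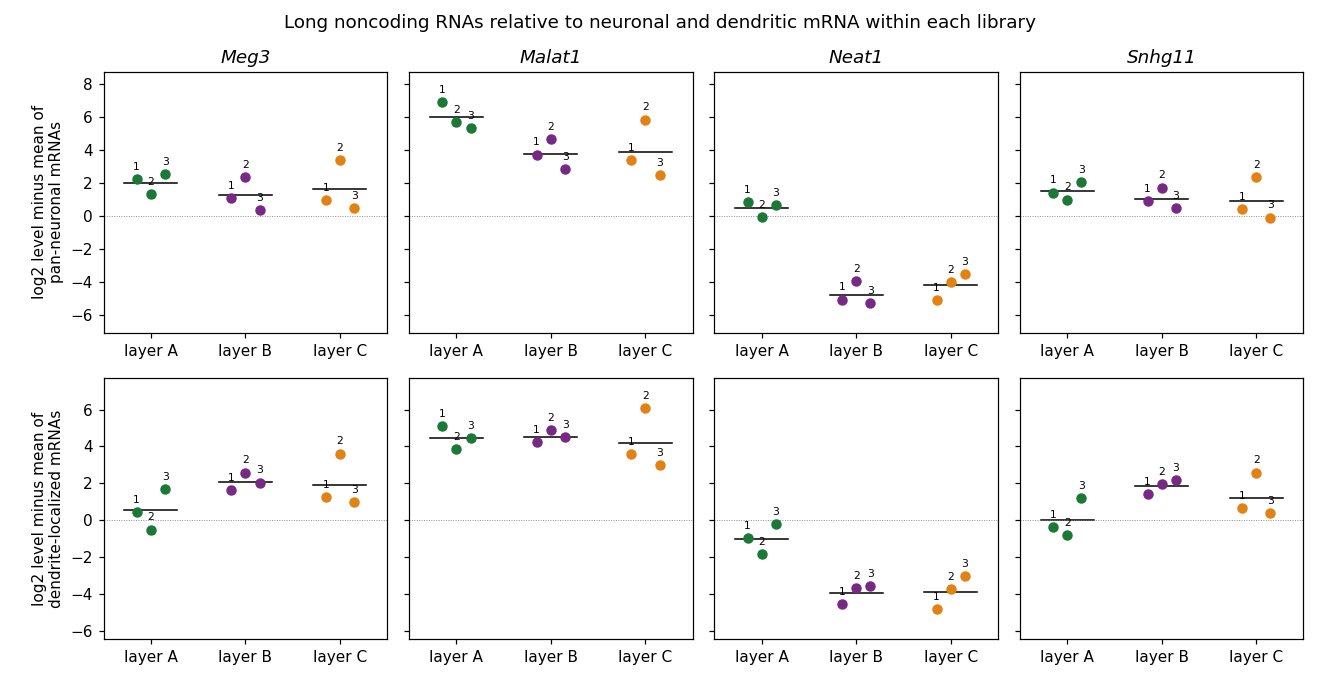
Log2 normalized CPM of each gene minus the mean log2 normalized CPM of 12 pan-neuronal mRNAs (upper row) or 13 dendrite-localized mRNAs (lower row) in the same library, with replicate numbers and layer means. Malat1 is higher in layer A than in B in the upper row by 2.23, where 56.1% of all transcripts are higher without overlap, and overlaps with it in the lower row, and Neat1 is higher in layer A in both.

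RNA with retained introns is mostly kept in the nucleus, so its share of the counts gave a second readout that used none of the 4 genes. Transcripts annotated as retained introns took 5.49 ± 0.368% of the counts outside the mitochondrial genome in layer A, 5.51 ± 0.583% in B and 5.34 ± 0.198% in C (SD, n = 3). Transcripts annotated as long noncoding RNA took 0.421 ± 0.0206, 0.426 ± 0.0297 and 0.398 ± 0.0246%. Both shares overlapped between all layers when all transcripts were counted. With only the highest transcript of each gene, the retained-intron share was 0.985, 1.16 and 1.02% in the means of layers A, B and C, and layer B lay above C without overlap. Within 3888 genes with both kinds of transcript, the median log2 ratio of the retained-intron to the coding transcript was between -1.75 and -1.68 in layer A, at -1.61, -1.55 and -2.34 in B and between -1.85 and -1.73 in C. Library B3 was the lowest of the 9 by this ratio, which was added after values were seen, and it was also the library with the highest 5′ to 3′ ratio along Malat1. Shared exons are counted for both kinds of transcript, so neither measure isolates introns.

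Of 29 other long noncoding RNAs looked for, 18 were counted and 16 tested. Between layers A and B, 2 were higher in layer A and none was lower, beside 10.7 and 5.83% of all transcripts. Dlx6os1, a noncoding RNA transcribed opposite the interneuron gene Dlx6, was at 18.4, 4.65 and 6.31 mean normalized CPM in layers A, B and C, with a log2 fold change of 1.97 against layer B (SE 0.397, adjusted p = 0.00352 by edgeR) and of 1.53 against layer C (adjusted p = 0.0208 by edgeR). Six3os1 had 14, 1 and 54 counts in layer A against 3, 0 and 0 in layer B (adjusted p = 0.0161 by edgeR), and its libraries overlapped. Tug1, a broadly expressed long noncoding RNA, was at 52.4, 51.8 and 55.3 mean normalized CPM, with a log2 fold change of 0.01 for A against B (SE 0.335, adjusted p = 0.987 by edgeR). The smallest value of the list was -1.45, for A330008L17Rik (adjusted p = 0.101 by edgeR). The median of the list was 0.12 between layers A and B, beside -0.12 over all transcripts, and 0.92 between layers A and C, beside -0.0067, with 1 of 16 called higher in layer A, where 6.98% of all were. Of 8 markers of GABAergic neurons, 1 was called higher in layer A than in B and none lower, with a median of -0.57. Against layer C, none was called higher and 2 were called lower, beside 4.35% of all transcripts, with a median of -1.23.

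**Figure D5:**
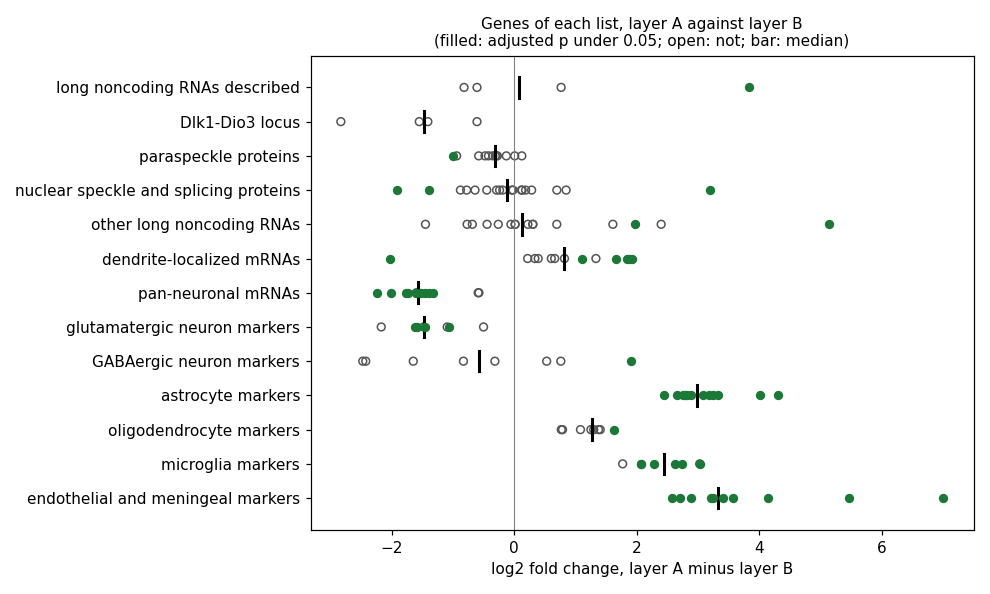
Log2 fold change for layer A against B of each tested gene of the lists, filled where the adjusted p was under 0.05 in edgeR, with the list median as a bar. Neat1, at 3.82, lies apart from the other 3 long noncoding RNAs and in the range of the astrocyte markers, 2.44 to 4.29.

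Small RNAs annotated within the bounds of the genes were counted as their precursor transcripts, and these counts do not measure mature microRNAs. Meg3 holds 2 microRNA genes, Snhg11 2 small nucleolar RNAs, Rian 12 small nucleolar RNAs and 4 microRNAs, and Mirg 13 microRNAs, 1 of them on the opposite strand. The RefSeq table gave 31 mature sequences, on GRCm38.p6, for 17 of the 19 microRNA genes. A few are shown to identify the hosted RNAs, with the seed (bases 2 to 8) in capitals, from Meg3 (miR-770), Rian (miR-1188) and Mirg (miR-134, and the pair miR-453 and miR-496a that share a seed).
mmu-miR-770-5p: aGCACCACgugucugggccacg
mmu-miR-1188-5p: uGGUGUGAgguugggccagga
mmu-miR-134-5p: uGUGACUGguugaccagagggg
mmu-miR-453: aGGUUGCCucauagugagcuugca
mmu-miR-496a-5p: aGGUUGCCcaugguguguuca

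The seed GGUUGCC was the 1 seed of the 30 distinct ones that more than 1 hosted microRNA carried. In Rian, the small RNAs summed to 1.94, 1.13 and 4.01 normalized CPM in libraries A1 to A3, 3.70, 6.29 and 2.20 in B1 to B3 and 3.53, 9.68 and 2.16 in C1 to C3. Those in Mirg summed to 0, 0.467 and 0.274 in layer A, 0.897, 1.52 and 0.166 in B and 0.392, 0.573 and 0.255 in C, where library A1 had no count, which allows up to 0.254 normalized CPM at 3 counts. Those in Meg3 summed to 0.869 ± 0.692, 1.72 ± 1.46 and 1.62 ± 0.831 normalized CPM in layers A, B and C, and those in Snhg11 to 0.0637 ± 0.0623, 0.266 ± 0.233 and 0.122 ± 0.0613 (SD, n = 3). All pairs of layers overlapped for each of the 4 host genes, and the sums in Rian peaked in library C2 as Meg3 did. Reads on these features can also come from the host RNA itself, and counting error alone does not cover the effect of amplification.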

How the data were processed

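RNA of 9 laser-captured samples (RNeasy Micro, Ovation amplification) was sequenced by the authors in libraries without strand. Per Ensembl transcript, the authors deposited read counts as they came, not normalized. The submitters' processing notes name bcl2fastq 1.8.4, Bowtie, HTSeq 0.5.3 and mm10. The RNA was amplified and carried no molecular identifiers, so reads do not equal molecules, and overlapping transcripts share reads.

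Of 95533 identifiers, 82807 (86.7%) were joined to GENCODE annotation of GRCm38. A transcript was tested if 3 or more samples had 10 or more counts (56416 did), with TMM scaling and the quasi-likelihood test of edgeR 4.0.16 (R 4.3.3, 9 samples, Benjamini-Hochberg adjustment, threshold 0.05). DESeq2 1.42.0 and other settings were alternatives. The fit was also run on simulated counts with few changed transcripts, which cannot show how it behaves on these amplified libraries. Correlations between libraries and genes are descriptions, with no p-value. Genes were named by rule: the members by their most abundant transcript, the extremes of each list, the genes most like the members, and any gene a result turned on. The members and lists were chosen with earlier results of these data known.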

Additional observations from a re-analysis of the deposited data

Results flagged for a closer look

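Small RNAs annotated within Rian and Mirg gave counts although no counted identifier matched an annotated transcript of these host genes. Whether the 12726 identifiers not joined to the annotation hold transcripts of these hosts was not tested. The 16 features within Rian summed to 1295 counts over the 9 libraries, with 17 to 273 a library, above the 3 counts taken as the floor in 9 of 9 libraries. The 13 features within Mirg summed to 187 counts, with 0 to 66 a library, above the floor in 8 of 9. Whether these reads came from the small RNAs or from their hosts was not tested.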

How the results depend on the processing

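Over 35 results, 322 alternative values were computed, and 308 kept the direction and the side of the threshold of the reported value, or stayed within the spread between libraries. Neat1 stayed past the threshold in layer A against B and against C under all 19 alternatives each, with adjusted p no higher than 0.00178 and 0.0230. The number of genes called was 1 of 4 between layers A and B and 0 of 4 between B and C under all of them. Between A and C it ran from 1 to 2 with a library left out (2 without library C2, where 3785 of 56302 transcripts were called).

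With each library left out in turn, these log2 fold changes changed sign or side. Between layers A and C, Malat1 ran from -0.13 (without C3) to 1.63 (without C2, adjusted p = 0.0434 in edgeR), Meg3 from -1.78 to 0.063 and Snhg11 from -1.51 to 0.11. Between layers B and C, Meg3 ran from -0.98 to 0.67, Malat1 from -0.95 to 0.86, Neat1 from -0.88 to 0.035 and Snhg11 from -0.31 to 0.93, and none passed. Over all transcripts the number called ran from 5571 to 11336 between layers A and B and from 1369 (without C1) to 9742 (without B3) between A and C. The cause was not tested.

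Upper-quartile scaling, added after seeing the data, changed no call. With only the highest transcript of each gene, the share of long noncoding RNA differed by -0.059 percentage points between layers A and B and that of retained introns by -0.18 (-0.024 over all transcripts). Libraries with the same replicate number did not deviate together (correlations from -0.186 to 0.243, above 0.1 in 4 of 9 pairs), and a fit with the number as a replicate block called 1 of 4 genes between layers A and B, 1 between A and C and 0 between B and C, with 9184 transcripts in all between A and B. With 3 libraries a layer and standard errors of 0.51 to 0.59 for Malat1, Meg3 and Snhg11, differences of 1 on the log2 scale were not detectable for them.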
